A study of Mus musculus with 160 samples.

Results

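The genes described here are the 4 mouse Fc gamma receptor genes Fcgr1, Fcgr2b, Fcgr3 and Fcgr4, the shared signalling subunit gene Fcer1g and the neonatal Fc receptor gene Fcgrt. They were found by matching Ensembl gene identifiers to mouse symbols and made up 6 of the 39179 genes counted in each library. The samples were distal colons of 160 mice of 4 knockout lines, profiled by RNA sequencing, in which the gene Nckap1l (line HEM1), Dock2 (line DOCK2), Gpsm3 (line GPSM3) or Dok3 (line Dok3) was deleted, to ask how the loss of each gene changed colon expression. The HEM1 line had 16 homozygous knockout (HO) and 15 wild-type (WT) mice of both sexes, collected at day 12. The DOCK2 line had 18 HO and 24 WT mice of both sexes and the GPSM3 line 20 HO and 20 WT males, both collected at day 10 with dextran sulfate sodium (DSS, a chemical that injures the colon lining) at 3%. The Dok3 line had 26 HO and 21 WT mice labelled male, collected at day 10 with DSS at 3.5%. The strain was C57BL6/J in the HEM1, DOCK2 and GPSM3 lines and 129 in the Dok3 line. All knockouts were germline, HO and WT mice came from crosses of heterozygotes and were young adults, and the age of each mouse is not in the labels. DSS was given in drinking water for the first days of the course and plain water thereafter, but the labels do not say which mice received it, so every group below may mix DSS-treated and untreated mice.

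Fc gamma receptors bind the constant part of immunoglobulin G (IgG) on myeloid cells and other leukocytes. The activating receptors Fcgr1, Fcgr3 and Fcgr4 have little signalling capacity of their own and depend on the Fcer1g chain, whose tyrosine motif is phosphorylated by Src kinases and recruits the kinase Syk, which leads to phagocytosis, degranulation and cytokine release. Fcgr2b carries an inhibitory motif that recruits the phosphatase Inpp5d. Fcgrt works with beta-2 microglobulin (B2m) to save IgG from degradation and carry it across epithelia, and needs no Fcer1g. In the colon these receptors are known from macrophages, neutrophils and, for Fcgr2b, B cells, whereas Fcgrt is also expressed by epithelium, endothelium and other stromal cells.

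In the mm10 build Fcgr2b (ENSMUSG00000026656, chr1:170958617-170976547), Fcgr4 (ENSMUSG00000059089, chr1:171018920-171029761), Fcgr3 (ENSMUSG00000059498, chr1:171051174-171064935) and Fcer1g (ENSMUSG00000058715, chr1:171229572-171234365) were neighbours on chromosome 1. Fcgr4 lay on the plus strand between Fcgr2b and Fcgr3, which, like Fcer1g, were on the minus strand. Fcgr1 (ENSMUSG00000015947) was at chr3:96282909-96293969 and Fcgrt (ENSMUSG00000003420) at chr7:45092990-45103851, both on the minus strand. All 6 are protein coding.

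The 250 bases upstream of the RefSeq start (GRCm38.p6, the same build as mm10) are shown for the 2 receptor genes whose levels varied most, for their signalling chain and for Fcgrt, which did not vary with them. They are written 5′ to 3′ on each gene's own strand, and capitals mark GAGGAA (the core of sites bound by the myeloid factor PU.1) or TTCNNNGAA (the spacing bound by STAT factors) on either strand.
Fcgr1, chr3:96293970-96294219, minus strand: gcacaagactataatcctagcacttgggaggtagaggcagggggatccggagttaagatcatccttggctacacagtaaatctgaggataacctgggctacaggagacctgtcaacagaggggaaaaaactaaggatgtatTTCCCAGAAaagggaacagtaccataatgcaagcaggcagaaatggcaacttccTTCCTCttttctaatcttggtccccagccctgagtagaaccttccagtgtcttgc
Fcgr4, chr1:171018676-171018925, plus strand: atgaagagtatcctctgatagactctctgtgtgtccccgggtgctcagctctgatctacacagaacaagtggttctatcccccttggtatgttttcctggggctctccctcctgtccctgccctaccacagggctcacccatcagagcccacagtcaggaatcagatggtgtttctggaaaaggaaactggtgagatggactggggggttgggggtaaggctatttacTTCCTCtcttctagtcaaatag
Fcer1g, chr1:171234350-171234599, minus strand: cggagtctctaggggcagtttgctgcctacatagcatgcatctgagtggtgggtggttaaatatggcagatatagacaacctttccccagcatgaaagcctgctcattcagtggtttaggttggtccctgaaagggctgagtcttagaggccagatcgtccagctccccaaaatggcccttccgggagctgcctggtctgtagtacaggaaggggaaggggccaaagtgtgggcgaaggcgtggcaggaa
Fcgrt, chr7:45103823-45104072, minus strand: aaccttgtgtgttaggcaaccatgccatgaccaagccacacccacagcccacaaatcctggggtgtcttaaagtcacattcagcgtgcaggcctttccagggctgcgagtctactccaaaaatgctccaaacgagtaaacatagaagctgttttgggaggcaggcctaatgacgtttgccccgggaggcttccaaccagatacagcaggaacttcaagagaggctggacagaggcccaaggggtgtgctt
GAGGAA began 55 bases before the start of Fcgr1 and 22 bases before the start of Fcgr4, and 23.1% of 27025 promoters of the same length held it. TTCNNNGAA stood 109 bases before the start of Fcgr1 and was in 7.18% of the promoters. The palindrome of the kappaB type, read on both strands, was in 0.289% of the promoters and in none of these windows. The Fcer1g and Fcgrt windows held none of the 3 patterns, which do not overlap each other in these sequences. A match is a description of letters only, since no binding was measured here. The windows of Fcgr4, Fcer1g and Fcgrt reach a few bases into the annotated gene. Those of Fcgr2b and Fcgr3 lay wholly inside it, and are not shown. In these, GAGGAA began 6 bases before the listed start of Fcgr3, and the Fcgr2b window held none of the 3 patterns.

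Fcgr2b and Fcgr3 are the pair whose reads are hardest to separate. Over 509 aligned coding bases they were 96.5% identical, and the longest identical run, 129 bases, was longer than a 100-base read. It spans 2 coding exons in each gene, at chr1:170966674-170966700 and chr1:170967980-170968081 in Fcgr2b and at chr1:171054167-171054193 and chr1:171057691-171057792 in Fcgr3. It is written in lower case throughout, since every base is shared:
Fcgr2b and Fcgr3, identical coding run: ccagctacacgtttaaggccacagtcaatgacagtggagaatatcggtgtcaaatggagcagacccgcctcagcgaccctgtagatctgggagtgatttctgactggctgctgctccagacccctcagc
Of the 100-base windows of the annotated transcripts, 44 of 1733 (2.54%) of Fcgr3 occurred also in Fcgr2b, and 82 of 5843 (1.4%) of Fcgr2b occurred in another gene. No such window of Fcgr1, Fcgr4, Fcer1g or Fcgrt was found elsewhere. How reads with several positions were counted is not given in the sources used here, so the levels of Fcgr2b and Fcgr3 carry that uncertainty.

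Library totals ran from 4344988 to 19993833 counts with a median of 15989626, and 3 counts, the smallest level regarded as detected, stood for 0.15 to 0.69 CPM (counts scaled to the library total). Skin or striated muscle markers exceeded 100 CPM in 34 libraries, and this was commonest in the HEM1 line, where 14 libraries remained without them. In 5 libraries of the Dok3 line the expression markers of sex differed from the label. The median of the targeted gene was lower in HO than in WT mice in all 4 lines, at 14.8 against 27.6 CPM for Nckap1l, 22.4 against 35.7 CPM for Dock2, 0.556 against 3.15 CPM for Gpsm3 and 3.3 against 3.67 CPM for Dok3, so that reads on the Dok3 gene hardly separated its groups. The library labelled Dok3_HO 17 had the highest Dok3 level of its line, 38 CPM, against 7.74 CPM in the next HO library, and it also had the highest Fcgr2b, Fcgr3, Fcgr4 and Fcer1g levels of the series. The library labelled GPSM3_HO 11 had Gpsm3 at 3.47 CPM, above the WT median, with 2.75 CPM in the next HO library, and its Fcgr4 level was 2.35 CPM. Nothing in the labels says whether mice of a group shared a litter or a cage.

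All 6 genes were measured at 3 or more counts in all 160 libraries, the lowest counts being 5 for Fcgr4 and 11 for Fcgr1. In whole tissue fewer cells of a type and less RNA per cell cannot be told apart, and this holds for each level and difference given here. Fcgr1, the high-affinity IgG receptor, had a median of 4.21 CPM (0.93 to 50.3). Fcgr2b, the inhibitory receptor, had a median of 26.6 CPM (6.99 to 206). Fcgr3, a low-affinity activating receptor, had a median of 18.2 CPM (5.58 to 228). The receptor with the widest range was Fcgr4, an activating receptor of neutrophils and monocytes, which ran 221-fold from 0.358 to 78.9 CPM around a median of 2.68 CPM. Fcer1g had a median of 11.4 CPM (3.29 to 145). Fcgrt differed from the other 5, with a median of 48.7 CPM and only a 2.73-fold span from 27.5 to 75.1 CPM.

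Per kilobase of annotated exon the order of the median levels was Fcgrt at 23.2 CPM, Fcer1g at 13.1 CPM, Fcgr3 at 10.5 CPM, Fcgr2b at 4.6 CPM, Fcgr4 at 2.14 CPM and Fcgr1 at 1.63 CPM. Ranges over the libraries overlapped between each pair of neighbours in this order. Within a library, however, Fcgr3 exceeded Fcgr2b in all 160, by 0.43 to 2.04 on the log2 scale per kilobase. This order rests on the exon lengths of all annotated transcripts, 5790 bases for Fcgr2b and 1736 for Fcgr3. Without the division by length, the median was higher for Fcgr2b, at 26.6 against 18.2 CPM. The shares below rest on the same lengths, and the counting of reads shared by this pair is uncertain. Of the 4 receptors summed per kilobase, Fcgr3 gave a median of 54.9% (37.2% to 68.2%), Fcgr2b 22.9% (13.7% to 38.2%), Fcgr4 12.4% (2.93% to 35.5%) and Fcgr1 8.35% (4.21% to 15.4%). The Fcer1g level per kilobase was close to the sum of the 3 activating receptors that use it, with a log2 ratio of -0.16 at the median and between -0.84 and 0.67 in every library.

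**Figure D1:**
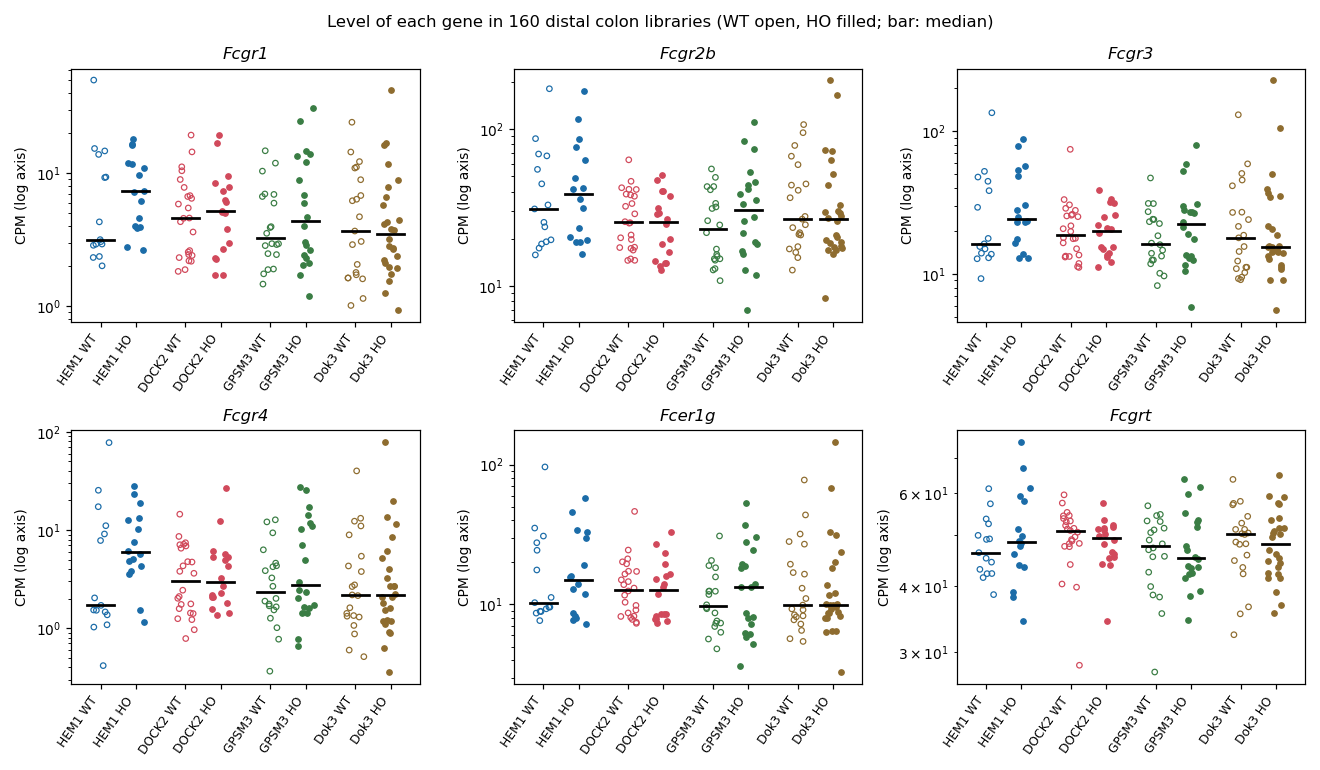
Level of each of the 6 genes in CPM (log axis) in every library, by line and genotype, with open circles for WT, filled circles for HO and bars for the median. The 5 receptor-complex genes spread widely inside each group and the groups overlap, whereas Fcgrt stays between 27.5 and 75.1 CPM.

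Across the 8 groups the median of Fcgr4 was lowest in HEM1 WT mice, at 1.71 CPM (0.416 to 77.7), and highest in HEM1 HO mice, at 5.93 CPM (1.16 to 28.2). In DOCK2 mice Fcgr4 had a median of 3.03 CPM (0.785 to 14.5) in WT and 2.97 CPM (1.37 to 26.7) in HO. In GPSM3 mice it was 2.34 CPM (0.365 to 12.7) in WT and 2.72 CPM (0.657 to 27.3) in HO. In Dok3 mice it was 2.18 CPM (0.513 to 40) in WT and 2.16 CPM (0.358 to 78.9) in HO. Every group overlapped every other. The medians of the remaining genes over the 8 groups lay between 3.16 and 7.3 CPM for Fcgr1, 23.1 and 38.7 CPM for Fcgr2b, 15.4 and 24.3 CPM for Fcgr3, 9.72 and 14.9 CPM for Fcer1g and 45.1 and 50.8 CPM for Fcgrt. The HEM1 HO group held the highest median of all 5 receptor-complex genes.

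The differences between mice of the same line and genotype were large for the receptors. The SD of log2(CPM + 0.5) within groups was 1.32 for Fcgr4, which exceeded that of 96.8% of the 16770 genes with a mean of at least 1 CPM. It was 1.07 for Fcgr1 (94.9%), 0.90 for Fcer1g (92.7%), 0.89 for Fcgr2b (92.5%) and 0.88 for Fcgr3 (92.3%). Fcgrt had an SD of 0.23, below the median gene at 0.31 and above 33.1% of genes. For Fcgr4 the SD ran from 0.99 in DOCK2 WT mice to 1.86 in HEM1 WT mice.

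**Figure D2:**
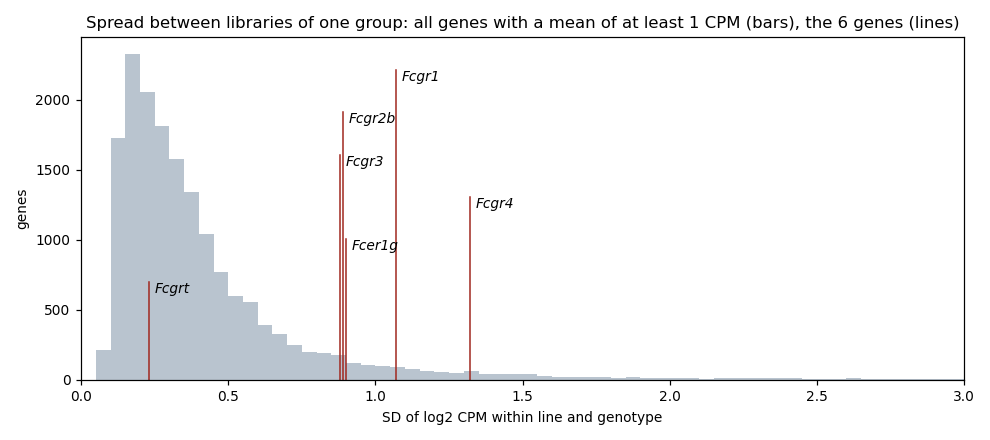
SD of log2(CPM + 0.5) between libraries of the same line and genotype for all genes with a mean of at least 1 CPM (bars, number of genes) with lines for the 6 genes, whose heights carry no value. Fcgr1 to Fcgr4 and Fcer1g lie in the upper tail, from 0.88 to 1.32, and Fcgrt lies at 0.23, left of the median gene at 0.31.

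The 5 receptor-complex genes varied together from mouse to mouse. After centring log2 CPM by line and genotype, Pearson's r with Fcer1g over 160 libraries was 0.972 for Fcgr3 (Spearman's rho 0.955), 0.963 for Fcgr2b (rho 0.945), 0.938 for Fcgr1 (rho 0.932) and 0.93 for Fcgr4 (rho 0.904). Each had a two-sided permutation p of 1e-05, the smallest that 100000 permutations can give (Benjamini-Hochberg adjusted p = 1.2e-05 over 6 pairs). Within the single lines r stayed between 0.955 and 0.984 for Fcgr2b and Fcgr3 and between 0.911 and 0.951 for Fcgr1 and Fcgr4. Without the 2 libraries farthest from the median of Fcer1g it was 0.968 for Fcgr3 and 0.918 for Fcgr4, and without the 34 libraries with skin or muscle RNA it was 0.967 and 0.943. Among the pooled centred values, the widest gap in Fcer1g was 0.18 of a range of 5.26 on the log2 scale. The 5 libraries at each end were set aside for the gap. Each group was centred on its own mean, so this check cannot find separate clusters inside a single group. In HEM1 WT mice, Fcgr4 fell into 9 libraries at or below 2.04 CPM and 6 at or above 7.82 CPM. The part of such splits in r was not tested. Fcgr2b and Fcgr3, which share the sequence shown above, had r = 0.958 (rho 0.951, permutation p = 1e-05).

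Fcgrt had no common relation with Fcer1g over the lines. Over all 160 libraries r was 0.157 (rho 0.167, two-sided permutation p = 0.0476, adjusted p = 0.0476). Within the lines r was 0.461 in HEM1 (unadjusted permutation p = 0.00875) and 0.326 in Dok3 (p = 0.0253). It was 0.009 in GPSM3 (permutation p = 0.956) and -0.407 in DOCK2 (p = 0.00776). Without the 34 libraries with skin or muscle RNA r was -0.032, so the pooled relation did not hold. Fcgrt had r between 0.035 and 0.217 with each of the 4 receptors.

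**Figure D3:**
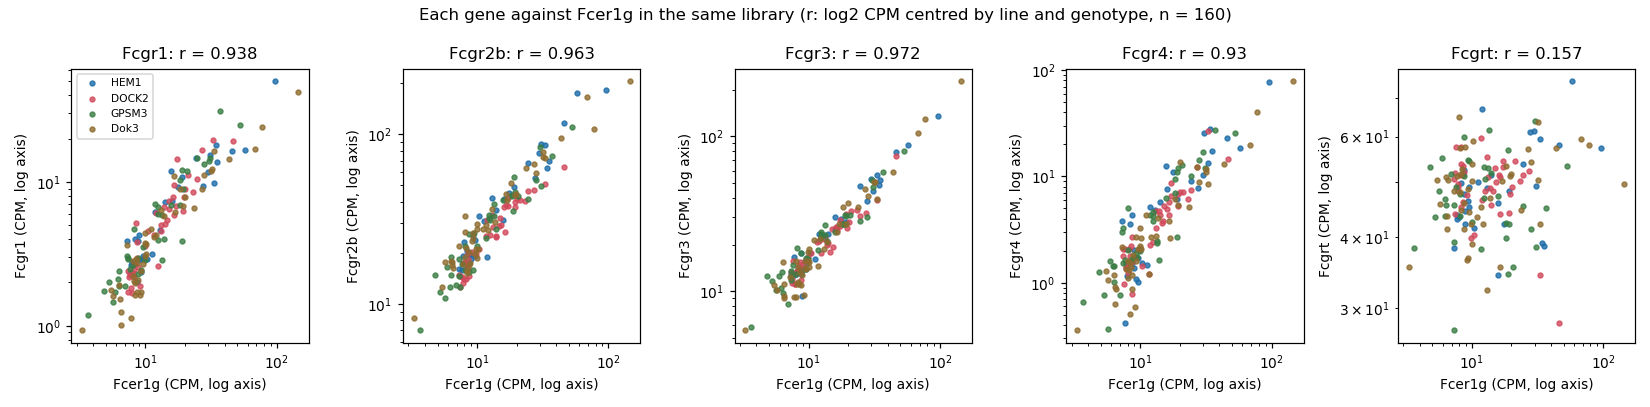
Level of Fcgr1, Fcgr2b, Fcgr3, Fcgr4 and Fcgrt against Fcer1g in the same library (CPM, both axes log), coloured by line, with r of log2 CPM centred by line and genotype. The 4 receptors follow Fcer1g with r from 0.93 to 0.972, and Fcgrt forms a flat band with r = 0.157.

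The receptors did not change in the same proportion. For each unit of log2 Fcer1g, Fcgr4 changed by 1.36 and Fcgr1 by 1.11, while Fcgr2b and Fcgr3 changed by 0.94 and Fcgrt by 0.04 (the slopes within groups, given as a description). Libraries with much Fcer1g were therefore relatively rich in Fcgr4. The library labelled Dok3_HO 17, with Fcer1g at 145 CPM, had 42.5 CPM of Fcgr1, 206 of Fcgr2b, 228 of Fcgr3 and 78.9 of Fcgr4. The next, HEM1_WT 10, with Fcer1g at 96.1 CPM, had 50.3 CPM of Fcgr1, 181 of Fcgr2b, 135 of Fcgr3 and 77.7 of Fcgr4. Fcgrt was unremarkable in both, at 49.5 and 57.3 CPM.

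Marker genes of leukocytes moved with the receptors. The mean log2 level of neutrophil markers had r of 0.932 with Fcer1g, 0.913 with Fcgr3, 0.884 with Fcgr4, 0.883 with Fcgr2b and 0.88 with Fcgr1, and 0.028 with Fcgrt. The monocyte and macrophage markers had r of 0.941 with Fcgr2b, 0.932 with Fcer1g, 0.931 with Fcgr3, 0.863 with Fcgr1, 0.847 with Fcgr4 and 0.356 with Fcgrt. The adjusted two-sided permutation p was 1.65e-05 over 66 relations for each of these values except that of neutrophil markers with Fcgrt, where it was 0.764. For the 5 receptor-complex genes r ran from 0.654 to 0.715 with T cell markers, from 0.271 to 0.389 with B cell markers, from 0.377 to 0.452 with dendritic cell markers, from 0.538 to 0.618 with NK cell markers, from 0.166 to 0.401 with mast cell markers, from 0.454 to 0.624 with endothelial markers, from -0.207 to -0.087 with plasma cell markers, from -0.361 to -0.173 with smooth muscle markers and from -0.595 to -0.419 with epithelial markers. Among the NK cell markers only Klrk1 reached a mean of 1 CPM. The summed neutrophil markers ran from 1.29 to 9540 CPM over the libraries with group medians of 5.72 to 25.6 CPM, and the summed macrophage markers from 231 to 1730 CPM with group medians of 471 to 554 CPM.

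Fcgr4 relative to Fcer1g also moved with these markers. Fcgr4 changed by 1.36 per unit of log2 Fcer1g, so its ratio to Fcer1g tends to rise with markers that follow Fcer1g. The values below for Fcgr4 cannot be told apart from that slope. The log2 ratio had r = 0.558 with the neutrophil level (rho 0.525, adjusted permutation p = 7.33e-05 over 44 relations, n = 160), and within lines r was 0.552 in HEM1, 0.482 in DOCK2, 0.581 in GPSM3 and 0.612 in Dok3. With T cell markers r was 0.559 (rho 0.556), and it was positive in all 4 lines, from 0.421 to 0.642. It was 0.473 (rho 0.50) with macrophage markers, from 0.323 to 0.614 in the lines, 0.435 (rho 0.358) with B cell markers, from 0.144 to 0.65, 0.413 with NK cell markers and 0.314 with dendritic cell markers. With smooth muscle markers it was -0.477 (rho -0.481), from -0.704 to -0.124 in the lines. The ratio of Fcgr3 to Fcer1g had r = -0.193 with the neutrophil level (rho -0.241), with 0.055 in the Dok3 line and -0.409 to -0.234 in the others.

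**Figure D4:**
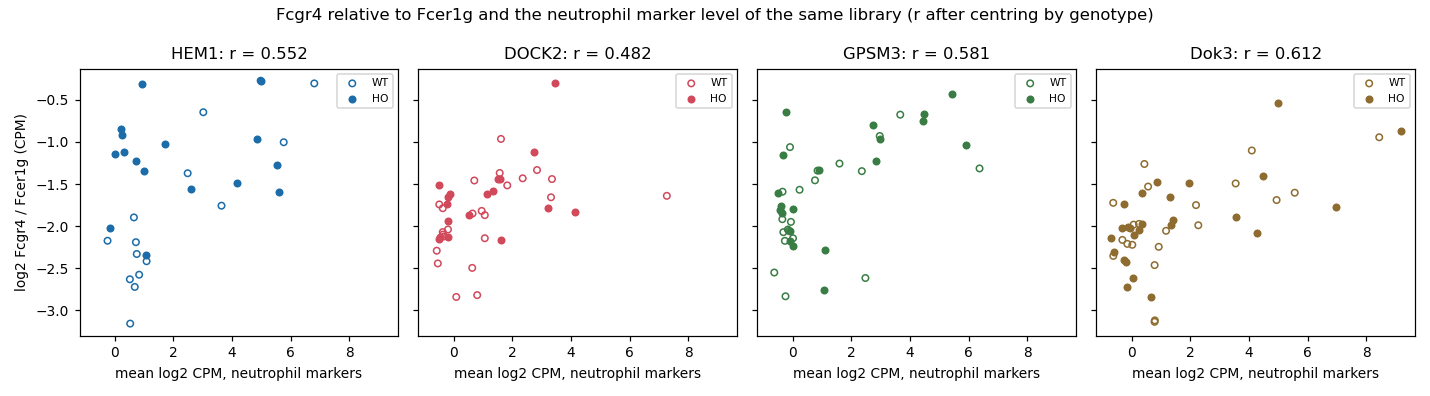
Log2 ratio of Fcgr4 to Fcer1g against the mean log2 CPM of the neutrophil markers in each library, by line, with open circles for WT and filled circles for HO. Libraries with a high neutrophil level tend to have a higher ratio, with r from 0.482 to 0.612 after centring by genotype. The points are not centred. Not all libraries follow the trend, as Dok3_HO 16 has a neutrophil level of 4.27 and a ratio of -2.078.

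The genes most like each receptor over the 160 libraries were chosen by r alone, as a description with no test. Fcer1g was closest to Tyrobp, the sister adaptor DAP12 (0.978), the inhibitory receptor Pirb (0.977), the integrin chains Itgb2 (0.976) and Itgam (0.972) and to Fcgr3 (0.972). Fcgr3 was closest to Fcer1g, Tyrobp (0.97), Itgb2 (0.962), Pirb (0.96) and Fcgr2b (0.958). Fcgr2b was closest to Fcer1g and Fcgr3, then to the lysosomal protease Lgmn (0.955), Tyrobp (0.949) and the lectin Clec4a3 (0.947). Fcgr1 was closest to Fcgr4 (0.944), Ms4a6d (0.943), Fcer1g and the scavenger receptor Msr1 (0.937). Fcgr4 was closest to Fcgr1, the protease Ctsc (0.939), which activates granule proteases, the hexokinase Hk3 (0.938) and Klra2 (0.936). Fcgrt had no such partners: its nearest genes were Adamts10 (0.674), Zbtb4 (0.664), Rras (0.661), Mapk8ip1 (0.655) and Islr (0.65). Genes with r over 0.9 numbered 159 for Fcer1g, 118 for Fcgr3, 100 for Fcgr2b, 53 for Fcgr4, 48 for Fcgr1 and 0 for Fcgrt.

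The loss of Nckap1l, which encodes a subunit of the WAVE complex that drives actin branching in leukocytes, left no receptor gene different by the test used. The Fcgr4 values of the 15 HEM1 WT mice fell into 9 at or below 2.04 CPM and 6 at or above 7.82 CPM, whereas 14 of the 16 HO mice were at or above 3.56 CPM. Each cut is the widest log2 gap inside its own group, the top value set aside. The cuts were taken from these values and differ, so the counts cannot be compared directly. The HO median of Fcgr4 was above the WT median, and the upper quartile was 12.8 CPM in HO and 10.1 CPM in WT mice. The highest value, 77.7 CPM, was in a WT mouse, HEM1_WT 10. The fitted log2 difference (HO minus WT) was -0.21 (SE 0.61) for Fcgr4, -0.15 (SE 0.43) for Fcgr1, 0.14 (SE 0.38) for Fcgr3, 0.19 (SE 0.39) for Fcgr2b, -0.01 (SE 0.39) for Fcer1g and 0.13 (SE 0.09) for Fcgrt. The count of genes called by edgeR's quasi-likelihood test at a Benjamini-Hochberg adjusted p under 0.05 was 0 of 6, against 0.0% of all genes tested, and 0 of 6 had an unadjusted p under 0.05, against 4.5% of all genes. DESeq2 and limma-voom called 0 of the 6 as well.

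For Fcgr4 in the HEM1 line the difference depended on the libraries and covariates used. It was 0.68 (SE 0.59, unadjusted p = 0.257, edgeR quasi-likelihood) without HEM1_WT 10, and -0.74 (SE 0.69, p = 0.3) in the 14 libraries without skin or muscle RNA, where Fcer1g was at -0.78 (SE 0.38, p = 0.0566). With 2 surrogate variables estimated from the expression data as covariates, Fcgr4 was 0.96 higher in HO mice (SE 0.19, edgeR adjusted p = 0.0137) and Fcgr3 0.39 higher (SE 0.09, adjusted p = 0.0366), the only setting among those run in this line that called any of the 6. That setting called 2 of 6, against 0.457% of all genes, and put 5 of 6 at an unadjusted p under 0.05, against 12.1%. With the neutrophil marker level as a covariate Fcgr4 was at 0.73 (SE 0.35, unadjusted p = 0.0427, edgeR adjusted p = 0.703). All 7 B cell markers had an unadjusted p under 0.05 and a value below 0 in the HO mice (median log2 difference -2.58), none of them called, and the neutrophil markers had 2 of 6 above 0 (median -0.13). The parts of B cells and of neutrophils in the receptor values were not tested.

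In the DOCK2 line, where Dock2, an activator of Rac in leukocytes, was deleted, the HO and WT values of each gene overlapped over most of their range. Fcer1g had a median of 12.6 CPM (7.42 to 32.9) in HO mice and 12.8 CPM (7.33 to 46.2) in WT mice. Fcgr3 had a median of 19.9 CPM (11.1 to 38.6) in HO mice and 18.9 CPM (11.1 to 74.6) in WT mice. The fitted log2 difference was 0.21 (SE 0.36) for Fcgr4, 0.07 (SE 0.31) for Fcgr1, -0.12 (SE 0.20) for Fcgr2b, -0.07 (SE 0.20) for Fcgr3, -0.05 (SE 0.21) for Fcer1g and -0.01 (SE 0.05) for Fcgrt. By edgeR 0 of 6 were called, against 0.034% of all genes, and 0 of 6 had an unadjusted p under 0.05, against 5.1%. DESeq2 and limma-voom also called 0. The B cell markers had a value below 0 in HO mice and an unadjusted p under 0.05 for 7 of 7 (median -0.89), none of them called, and the neutrophil markers had 2 of 6 above 0 (median -0.52).

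In the GPSM3 line, where Gpsm3, a regulator of G protein signalling in leukocytes, was deleted, all 6 fitted differences were above 0, but none was called. Fcgr4 reached 27.3 CPM in HO mice and 12.7 CPM in WT mice, with an upper quartile of 11.3 against 4.4 CPM. The upper quartile of Fcgr1 was 12.4 CPM in HO mice and 6.74 CPM in WT mice, and that of Fcer1g was 20.6 against 13.3 CPM, while the medians lay closer, at 13.4 against 9.72 CPM for Fcer1g. The log2 difference was 0.96 (SE 0.45) for Fcgr4, with an unadjusted p of 0.0377 and an edgeR adjusted p of 0.936. It was 0.73 (SE 0.37) for Fcgr1, 0.50 (SE 0.27) for Fcgr2b, 0.45 (SE 0.25) for Fcgr3, 0.49 (SE 0.28) for Fcer1g and 0.06 (SE 0.08) for Fcgrt. By edgeR 0 of 6 were called, against 0.00569% of all genes, and 1 of 6 had an unadjusted p under 0.05, against 4.86%. DESeq2 called 0, with 2 at an unadjusted p under 0.05, against 982 of 17560 genes. For limma-voom both counts were 0, against 511 of 17560 genes at an unadjusted p under 0.05. Without the HO library with the highest receptor levels Fcgr4 was at 0.77 (edgeR unadjusted p = 0.087), and by limma-voom Fcgr4 was at 0.62, Fcgr1 at 0.42 and Fcer1g at 0.27. The 5 neutrophil markers tested were all above 0 (median 0.93) with none called, and the macrophage markers had 11 of 12 above 0 (median 0.24). With the neutrophil marker level as a covariate the differences were smaller, at 0.32 (SE 0.24) for Fcgr4, 0.15 (SE 0.16) for Fcgr1, 0.19 (SE 0.17) for Fcgr2b, 0.17 (SE 0.13) for Fcgr3 and 0.11 (SE 0.13) for Fcer1g, and at 0.08 (SE 0.08) for Fcgrt. Over all libraries that level had r of 0.88 to 0.932 with the receptor-complex genes, so this fit cannot separate the part of neutrophils. With 2 surrogate variables Fcgr4 was at 0.37, Fcgr1 at 0.13 and Fcer1g at 0.06. The parts of neutrophils and of macrophages were not tested.

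In the Dok3 line the deleted gene encodes an adaptor that dampens signalling of immune receptors. The differences of the 5 receptor-complex genes changed sign without the library labelled Dok3_HO 17, and also by limma-voom with all libraries kept. Fcer1g had a median of 9.96 CPM (3.29 to 145) in HO mice and 9.89 CPM (5.44 to 77.5) in WT mice. With all libraries the log2 difference was 0.30 (SE 0.54) for Fcgr4, 0.17 (SE 0.37) for Fcer1g, 0.17 (SE 0.37) for Fcgr3, 0.12 (SE 0.32) for Fcgr2b, 0.07 (SE 0.40) for Fcgr1 and -0.01 (SE 0.07) for Fcgrt. Without Dok3_HO 17 the difference was -0.52 for Fcgr4 (SE 0.46, unadjusted p = 0.258, edgeR quasi-likelihood) and -0.28 for Fcer1g (SE 0.31, p = 0.363). By edgeR 0 of 6 were called, against 0.0% of all genes, and 0 of 6 had an unadjusted p under 0.05, against 2.19%. DESeq2 and limma-voom called 0. The neutrophil markers had 5 of 6 above 0 (median 0.31) and the macrophage markers 7 of 12 (median 0.03).

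The effect of the knockout was compared between the 4 lines in a fit over all 160 libraries. By edgeR it differed for 0 of 6 receptor genes, against 0.69% of all genes, and 0 of 6 had an unadjusted p under 0.05, against 5.68%, with p from 0.421 for Fcgr1 to 0.7 for Fcgr3. DESeq2 and limma-voom called 0. The absence of calls does not show that the lines act alike, since the SE of Fcgr4 ranged from 0.36 to 0.61 on the log2 scale in the single lines.

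**Figure D5:**
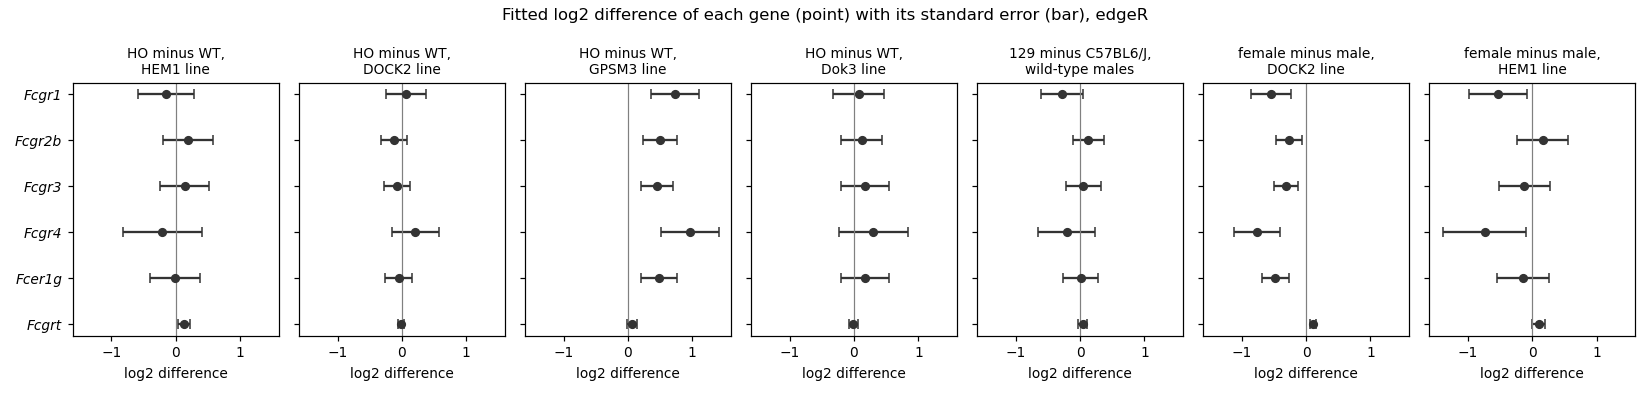
Fitted log2 difference of each gene (point) with its standard error (bar) from edgeR for the knockout in each line, for 129 against C57BL6/J and for females against males. No gene was called in any panel, Fcgr4 has the widest bars, and Fcgrt has the narrowest and lies within 0.13 of 0.

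The 129 and C57BL6/J strains were compared in WT mice labelled male, 21 of the Dok3 line against the mean of the other lines. In 2 of the 21 the expression markers of sex differed from the label. Without the libraries that differed, 0 of the 6 genes were called, against 3267 of 19573 genes. Strain, line and DSS dose cannot be told apart, since all 129 mice were of the Dok3 line. By the labels, the dose of that line was higher than in the DOCK2 and GPSM3 lines. The HEM1 line has no dose in the labels and was collected on a later day. This limit holds for every difference between 129 and C57BL6/J mice given here. Fcgr4 had a median of 2.18 CPM (0.513 to 40) in 129 mice, and of 2.04 CPM (0.416 to 77.7) in the 7 HEM1, 3.03 CPM (1.22 to 14.5) in the 12 DOCK2 and 2.34 CPM (0.365 to 12.7) in the 20 GPSM3 males. The log2 difference (129 minus C57BL6/J) was -0.21 (SE 0.44) for Fcgr4, -0.28 (SE 0.33) for Fcgr1, 0.13 (SE 0.24) for Fcgr2b, 0.05 (SE 0.27) for Fcgr3, 0.01 (SE 0.27) for Fcer1g and 0.04 (SE 0.07) for Fcgrt. By edgeR 0 of 6 were called, against 16.1% of all genes, and 0 of 6 had an unadjusted p under 0.05, against 29.9%. DESeq2 and limma-voom called 0. The neutrophil markers had 9 of 9 above 0 in 129 mice (median 0.64) and the macrophage markers 7 of 12 (median 0.06), with none called. Of the 15 genes annotated on chromosome 1 between the start of Fcgr2b and the end of Fcer1g, 11 were tested and 3 were called, against 16.1% of all genes. All 3 were lower in 129 mice: Sdhc, a subunit of mitochondrial complex II (-0.22, edgeR adjusted p = 0.000754), Pcp4l1 (-0.39, adjusted p = 0.00279) and the nuclear receptor Nr1i3 (-0.61, adjusted p = 0.0266). How reads of 129 alleles of any gene here mapped to the C57BL6/J reference was not tested.

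Females were compared with males in the 2 lines that held both. In the DOCK2 line Fcgr4 had a median of 2.18 CPM (0.785 to 8.6) in 20 females and 3.99 CPM (1.22 to 26.7) in 22 males, and Fcer1g had a median of 8.91 CPM (7.33 to 23.1) in females and 13.9 CPM (7.42 to 46.2) in males. Fcgrt had 51.4 CPM (43.9 to 57.6) in females and 48.2 CPM (28.3 to 59.6) in males. The log2 difference (female minus male) was -0.76 (SE 0.36, unadjusted p = 0.0406, edgeR adjusted p = 0.174) for Fcgr4, -0.48 (SE 0.21, p = 0.0279, edgeR adjusted p = 0.14) for Fcer1g and 0.11 (SE 0.05, p = 0.0242, edgeR adjusted p = 0.13) for Fcgrt. Fcgr1 was at -0.54 (SE 0.31), Fcgr3 at -0.31 (SE 0.19) and Fcgr2b at -0.27 (SE 0.20). By edgeR 0 of 6 were called, against 9.75% of all genes, and 3 of 6 had an unadjusted p under 0.05, against 25.6%. DESeq2 called 0, with 3 under an unadjusted 0.05, against 4683 of 17648 genes. For limma-voom these were 0 and 1, against 4298 of 17648 genes under an unadjusted 0.05.

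This comparison changed when libraries with skin or muscle RNA were set aside, a choice made after the values were seen. In the 37 libraries that remained, Fcer1g was lower in females by edgeR (log2 difference -0.69, SE 0.22, adjusted p = 0.0271), and so was Fcgr4 (-1.11, SE 0.37, adjusted p = 0.0346). The 2 of 6 called stood against 18.3% of all genes, more than in the full set. All 6 genes then had an unadjusted p under 0.05, against 32.9% of all genes, with Fcgr1 at -0.77, Fcgr3 at -0.46, Fcgr2b at -0.44 and Fcgrt, in the other direction, at 0.12. In the full set the neutrophil markers had 0 of 6 above 0 in females (median -1.69) and the macrophage markers 3 of 12 (median -0.11). With the neutrophil level as a covariate in the full set Fcgr4 was at -0.03 (SE 0.21), Fcer1g at -0.03 (SE 0.07), Fcgr1 at 0.01, Fcgr2b at 0.07, Fcgr3 at 0.10 and Fcgrt at 0.09. Over all libraries that level had r of 0.88 to 0.932 with the receptor-complex genes, so this fit cannot separate the part of neutrophils. Whether females and males received DSS in equal shares is not in the labels and was not tested.

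In the HEM1 line the same contrast, 12 females against 19 males, gave -0.74 (SE 0.64) for Fcgr4, -0.53 (SE 0.45) for Fcgr1, -0.14 (SE 0.40) for Fcer1g, -0.12 (SE 0.39) for Fcgr3, 0.16 (SE 0.40) for Fcgr2b and 0.10 (SE 0.10) for Fcgrt. By edgeR 0 of 6 were called, against 0.178% of all genes, and 0 of 6 had an unadjusted p under 0.05, against 15.7%. DESeq2 and limma-voom called 0. Whether the sex effect differs between the lines was not tested.

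The wider Fc receptor pathway was read from lists of other genes. Of 17 kinases and adaptors below the activating receptors, from Syk, with a median of 121 CPM, to Card9, with 2.48 CPM, none was called in the knockout comparisons. All 17 were above 0 in GPSM3 HO mice (median 0.36, against 0.0 over all genes), 7 of them at an unadjusted p under 0.05, against 4.86% of all genes. The neutrophil markers (5 of 5 above 0, median 0.93) and macrophage markers (11 of 12, median 0.24) moved the same way in these mice. The smallest p was that of Pik3r5, a regulatory subunit of phosphoinositide 3-kinase, at 0.56 (SE 0.20, edgeR adjusted p = 0.936). In HEM1 HO mice 3 of 17 were above 0 (median -0.26), in DOCK2 HO mice 5 of 17 (median -0.09) and in Dok3 HO mice 10 of 17 (median 0.05). In 129 mice Lat2, a linker in leukocytes, was 0.45 higher (SE 0.12, edgeR adjusted p = 0.00741) and the phospholipase Plcg2 0.42 higher (SE 0.11, adjusted p = 0.00743). These were 2 of 17 called, against 16.1% of all genes. None was called between the sexes.

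The inhibitory side had 10 of 11 listed genes tested, and no call in a knockout comparison. Inpp5d, the phosphatase recruited by Fcgr2b, was at 0.40 (SE 0.18, edgeR adjusted p = 0.936) in GPSM3 HO mice, and 8 of 10 were above 0 there (median 0.25). In the HEM1 line 3 of 10 were above 0 (median -0.04), in the DOCK2 line 4 of 10 (median -0.03) and in the Dok3 line 6 of 10 (median 0.06). The adaptor Dok2 was 0.46 higher in 129 mice (SE 0.16, edgeR adjusted p = 0.0351), and the ubiquitin ligase Cblb was 0.21 higher in DOCK2 females (SE 0.05, adjusted p = 0.00854). Each was 1 of 10 called in its comparison, against 16.1% of all genes for strain and 9.75% for sex.

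A list of 9 genes held other receptors that can pair with Fcer1g and also its sister adaptor Tyrobp. Only 4 to 6 of the 9 passed the filter on low counts in a knockout comparison, and none was called in any comparison. The mast cell and basophil IgE receptor genes Fcer1a and Ms4a2 had medians of 0.0642 and 0.0607 CPM, at or under the level of 3 counts. The lectin Clec4e ran from 0 to 303 CPM and Clec4d from 0.119 to 99.7 CPM, while Clec4n ran from 1.67 to 46.8 CPM. Medians over those tested were -0.09 in HEM1, -0.04 in DOCK2, 0.48 in GPSM3 and 0.28 in Dok3 HO mice.

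Among 10 other antibody receptors the IgE receptor of B cells, Fcer2a, was at -1.58 (SE 0.50, edgeR adjusted p = 0.83) in HEM1 HO mice and at -0.92 (SE 0.22, adjusted p = 0.155) in DOCK2 HO mice, neither of them called. The list medians were -0.75 in HEM1, -0.53 in DOCK2, 0.21 in GPSM3 and -0.09 in Dok3 HO mice. In 129 mice 3 B cell members of the Fc receptor-like family were higher: Fcrl5 by 1.07 (SE 0.38, edgeR adjusted p = 0.0436), Fcrl1 by 0.99 (SE 0.33, adjusted p = 0.0328) and Fcrla by 0.94 (SE 0.32, adjusted p = 0.0312). They were 3 of 10 called, against 16.1% of all genes. In the same comparison the B cell markers had 7 of 7 above 0 (median 0.66) with 3 at an unadjusted p under 0.05, the plasma cell markers had 3 of 5 called and the T cell markers 2 of 6 called, all higher in 129 mice. Fcrls was 0.50 higher in DOCK2 females (SE 0.15, adjusted p = 0.0313), 1 of 8 called, against 9.75% of all genes. Pigr, the epithelial carrier of polymeric IgA, had a median of 3140 CPM.

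The levels of the ligand genes varied widely between libraries. The IgG heavy chain gene Ighg1 had a median of 1.69 CPM (0 to 85.6), Ighg2b 5.71 CPM (0 to 401) and the IgA gene Igha 126 CPM (0.249 to 3820), while B2m, the partner of Fcgrt, had 288 CPM (168 to 958). In 129 mice Ighg1 was 2.60 higher on the log2 scale (SE 0.47, edgeR adjusted p = 3.69e-05), Igha 2.45 (SE 0.46, adjusted p = 6.34e-05), Ighg2c 1.71 (SE 0.56, adjusted p = 0.0289) and Ighm 0.77 (SE 0.26, adjusted p = 0.0303). They were 4 of 8 tested, against 16.1% of all genes. The plasma cell markers had 5 of 5 above 0 in 129 mice (median 1.5), 3 of them called, and the B cell markers 7 of 7 above 0 (median 0.66), none called, and their part in these values was not tested. Alleles of immunoglobulin genes differ between strains, and how reads of 129 alleles mapped to the C57BL6/J reference was not tested. The knockout effect differed between lines for Ighg1 (edgeR adjusted p = 0.00049), Ighm (0.0272) and Ighg3 (0.0452), 3 of 8 tested, against 0.69% of all genes. None of these genes was called in a single line, where Ighg1 was at 2.01 (SE 0.63, adjusted p = 0.936) in GPSM3 HO mice and Ighg2b at -1.98 (SE 0.48, adjusted p = 0.155) in DOCK2 HO mice.

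A list of 12 regulators of Fc receptor genes held transcription factors, cytokines and the complement receptor C5ar1. Of these, 9 or 10 were tested and none was called in a knockout or sex comparison. The interferon-induced factor Irf1 was at 0.41 (SE 0.17, edgeR adjusted p = 0.936) in GPSM3 HO mice and at 0.34 (SE 0.11, adjusted p = 0.564) in DOCK2 HO mice, and the list medians were 0.39 in GPSM3, 0.06 in DOCK2, 0.02 in HEM1 and 0.05 in Dok3. Spi1, which encodes PU.1, had a median of 8.83 CPM (1.73 to 110). Cebpa, a factor of myeloid and epithelial cells, was 0.50 higher in 129 mice (SE 0.16, adjusted p = 0.021), 1 of 10 called, against 16.1% of all genes. Ifng, the cytokine that induces Fcgr1 and Fcgr4, had a median of 0.0648 CPM, under the level of 3 counts.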

How the data were processed

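RNA of the distal colon was sequenced by the authors as single reads from stranded, ribosome-depleted libraries. Per the labels, reads were aligned to mm10 with STAR and counted per gene with featureCounts of Subread, whose versions are not given in the sources used here, and the deposited values are raw counts for 39179 Ensembl genes in each of 160 samples. Symbols were matched for 37693 genes (96.21%, holding 99.67% of counts). Groups were taken from the labels of line, genotype, sex and strain, and each sample is a separate library. The p-values measure the spread between these samples.

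Counts were converted to CPM with the library total, and log2 values use a pseudocount of 0.5 CPM. Differences were tested on the counts with edgeR 4.0.16 in R 4.3.3 (TMM scaling, filterByExpr, quasi-likelihood test, Benjamini-Hochberg over all genes tested, threshold 0.05), with sex as a covariate in the HEM1 and DOCK2 lines and genotype in the sex contrast. DESeq2 1.42.0, limma-voom (limma 3.58.1), 2 surrogate variables (sva 3.50.0), other filters and subsets of samples were alternatives. The scripts were tested on simulated counts. Correlations used log2 CPM centred by line and genotype, with 100000 permutations (scipy 1.17.1).

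The 6 genes, the pathway lists and the cell markers were chosen with earlier results of these data known. Besides the 6 genes, the text names, for each pathway list and comparison, up to 4 genes past the threshold with the smallest p or else the gene with the smallest p, the 5 genes with the highest r to each of the 6 among genes with a mean of at least 1 CPM, and the genes called in the chromosome 1 interval in the strain comparison, except for an item that is not reported here. Levels of further list genes are given as a description and were chosen after their values were seen. No pair of libraries in a group differed by less than the sampling noise.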

Additional observations from a re-analysis of the deposited data

How the results depend on the processing

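None of the 6 genes was called in the 8 comparisons as reported, and 2 of the alternatives run called any, 2 genes each (HEM1 knockout with 2 surrogate variables, and DOCK2 females against males without libraries over 100 CPM of skin or striated muscle markers). Of 445 alternative values of the log2 difference, 372 kept direction and side of the threshold, 3 passed the threshold in the same direction and 70 changed sign. The 70 include Fcgr4 in the HEM1 knockout comparison, at -0.21 as reported. With 2 surrogate variables it was above 0 and also passed the threshold. All 59 in the GPSM3 line kept direction. The alternatives that left out the library with the highest receptor levels, libraries with skin or muscle RNA, or libraries whose sex markers differed from the label were chosen after seeing the data. Fcgr4 gave no value where at least 10 counts were required in every sample and its counts were lower. No paired analysis was possible because each label gives a sample its own number and no replicate number is shared by design between HO and WT mice. Depth limits Fcgr1 and Fcgr4 most, whose lowest counts were 11 and 5. The cause of the changes below was not tested.

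In the HEM1 knockout comparison, Fcgr1, Fcgr4 and Fcer1g were at 0.41, 0.96 and 0.20 with 2 surrogate variables, at 0.26, 0.79 and 0.09 by limma-voom, at 0.26, 0.73 and 0.10 with the neutrophil level as a covariate, at 0.17, 0.46 and 0.25 with the sample-number block as a covariate, at 0.36, 0.62 and 0.73 in females only and at 0.46, 0.68 and 0.49 without the library with the highest receptor levels. Fcgr2b and Fcgr3 were at -0.25 and -0.26 in males only and at -0.76 and -0.48 without skin or muscle libraries. In the DOCK2 line Fcgr1 and Fcgr4 were at -0.19 and -0.30 in females only, Fcgr1 was at -0.10 and Fcgrt at 0.01 without skin or muscle libraries, Fcgrt was at 0.01 with 2 surrogate variables, Fcgr3 was at 0.01 by limma-voom, Fcgr3 and Fcer1g were at 0.01 and 0.0 with the neutrophil level, and both were at 0.10 without the highest library. In the Dok3 line, without the highest library, Fcgr1, Fcgr2b, Fcgr3, Fcgr4 and Fcer1g were at -0.32, -0.14, -0.29, -0.52 and -0.28, and the log2 ratios of Fcgr2b and Fcgr4 to Fcer1g differed by 0.0 and -0.02. By limma-voom the same 5 genes were at -0.05, -0.09, -0.06, -0.04 and -0.08. DESeq2 gave -0.30 for Fcgr3 and -0.54 for Fcgr4, the neutrophil level -0.02 for Fcgr1 and -0.01 for Fcgr2b, the set without skin or muscle libraries -0.05 and -0.03 for the same pair, and 2 surrogate variables 0.0 for Fcgrt.

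In the strain comparison, Fcgr4 was at 0.30 against the DOCK2 line alone, Fcgr1 and Fcgr4 at 0.29 and 0.54 against the GPSM3 line alone and at 0.26 and 0.55 against its second sample-number block, where Fcgrt was at -0.0, and Fcgr2b, Fcgr3 and Fcer1g at -0.49, -0.51 and -0.61 against the HEM1 line alone. Fcer1g was at -0.0 with genes of at least 1 count, Fcgrt at -0.01 in knockout males, Fcgr4 at 0.04 without skin or muscle libraries, and Fcgr3 and Fcer1g at -0.03 and -0.04 by limma-voom and at -0.01 and -0.02 with the neutrophil level. Between the sexes, Fcgr1, Fcgr2b and Fcgr3 were at 0.01, 0.07 and 0.10 in the DOCK2 line with the neutrophil level, and in the HEM1 line Fcgr2b was at -0.37 in wild types only and Fcgr4 at 0.29 without skin or muscle libraries. The correlation of Fcer1g with Fcgrt was -0.407 within the DOCK2 line, 0.009 within the GPSM3 line and -0.032 without skin or muscle libraries.

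The number of all genes called also moved by over 1.5 times. From 0 in the HEM1 line it went to 21 by DESeq2, 27 with genes of at least 1 count and 82 with 2 surrogate variables. From 6 in the DOCK2 line it went to 70 by DESeq2, 0 by limma-voom, 31 and 1 with the looser and the stricter filter, 93 with 2 surrogate variables, 1 in males only, 0 in females only and 79 without skin or muscle libraries. From 1 in the GPSM3 line it went to 4 by DESeq2, 32 and 0 with the filters and 2 without those libraries, and from 0 in the Dok3 line to 3 by DESeq2 and 15 with the looser filter. From 3162 for strain it went to 727 against DOCK2, 575 against HEM1 and 1386 against the second block of GPSM3. From 1721 for sex in the DOCK2 line it went to 358 in wild types and 3202 without skin or muscle libraries. From 32 for sex in the HEM1 line it went to 192 by DESeq2, 55 and 18 with the filters, 95 with the neutrophil level, 9 in wild types and 8 without those libraries. From 137 for the difference between lines it went to 1 by limma-voom, 1 with the stricter filter and 341 without those libraries.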

Other observations

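The balance between each Fc gamma receptor and Fcer1g, the chain that carries the signal of the activating receptors, was compared between HO and WT mice of each line, a comparison chosen after the values were seen. In the HEM1 line the log2 ratio of Fcgr3 to Fcer1g was 0.77 ± 0.15 (SD, n = 16) in HO mice and 0.58 ± 0.20 (SD, n = 15) in WT mice, a difference of 0.18 (two-sided permutation p = 0.0044, Benjamini-Hochberg adjusted p = 0.0704 over 16 comparisons). The ratio of Fcgr4 to Fcer1g in that line was -1.22 ± 0.54 (SD, n = 16) in HO mice and -1.83 ± 0.91 (SD, n = 15) in WT mice, a difference of 0.61 (permutation p = 0.0297, adjusted p = 0.238). Neither passed the correction, and the other 14 comparisons had an adjusted p of at least 0.399. Against the inhibitory receptor, the log2 ratio of Fcgr4 to Fcgr2b per kilobase ran from -3.17 to 1.28 over the 160 libraries with a median of -0.90, and that of Fcgr1 to Fcgr2b from -2.86 to -0.11 with a median of -1.45.

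The sample numbers of the HEM1 line fell into 3 runs, whose meaning the labels do not give. In WT mice Fcgr4 had a median of 1.42 CPM in the first run (n = 8), 14.2 CPM in the second (n = 4) and 2.04 CPM in the last (n = 3). In HO mice the medians were 8.23 CPM (n = 6), 7.58 CPM (n = 5) and 5.11 CPM (n = 5). Sex differed between the runs, since the WT mice were 6 females and 2 males in the first, 4 males in the second and 2 females and 1 male in the last, and the HO mice 3 females and 3 males, 5 males, and 1 female and 4 males.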
